A study of Homo sapiens with 4 samples.

Results

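The SRRM4 library was compared directly with the library of its paralog SRRM3, which asks how transcript levels differ between cells that carry these related splicing regulators. Both libraries come from HEK293, a human embryonic kidney cell line, with a stably integrated transgene that doxycycline switches on. The series holds 4 libraries, 1 for each group: SRRM4, SRRM3, MSI1 (Musashi 1, another RNA-binding protein) and an empty vector. All 4 lines, the empty vector line included, were kept in medium with tetracycline-free serum and received doxycycline at 1 µg/mL for 24 h. The RNA was polyA-selected and the libraries were stranded. The labels do not say whether a line is a clone or a pool of cells. With 1 library in each group there is no replicate check. An effect of the transgene and any other difference between the lines therefore cannot be told apart, and no p-value was computed.

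The comparison uses 2 of the 4 libraries and 12705 of the 41614 genes listed. These are the genes with a mean of at least 1 cRPKM over the SRRM4 and SRRM3 libraries, leaving out SRRM3 and SRRM4 themselves. A cRPKM is the authors' corrected RPKM, the read density of a gene per unit of gene length and library size. The SRRM4 library held 60288244 counted reads and the SRRM3 library 62892722, against 63003121 for MSI1 and 62083851 for the empty vector. A ratio below is the depth-scaled count in SRRM4 over that in SRRM3, with its exact 95% counting interval in brackets. A log2 fold is taken after 0.5 cRPKM has been added to each value, which understates the difference of genes with low levels. A gene is called at least 2-fold higher or lower by this log2 fold, and the interval excludes 1 where so stated. Since reads without molecular identifiers are not separate molecules, an interval covers only the error of counting, and it compares these libraries and not the conditions. Just inside the filter lay CCDC122 at 0.93 cRPKM in SRRM4 and 1.07 in SRRM3, and COL21A1 at 0.65 in SRRM4 and 1.35 in SRRM3. Just outside it lay VAV1 at 1.06 cRPKM in SRRM4 and 0.93 in SRRM3, and VMAC at 0.9 in SRRM4 and 1.09 in SRRM3.

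SRRM4 and SRRM3 are proteins rich in serine and arginine that act with the spliceosome to include microexons, very short exons found mostly in transcripts of neurons, photoreceptors and endocrine cells. In neural cells SRRM4 is also known to alter the splicing of REST, a repressor that keeps neuronal genes silent elsewhere. Some of the genes described below belong to well-studied programmes. YAP and TAZ, the coactivators that the Hippo kinase cascade restrains, act with TEAD factors on genes such as CCN2 and ANKRD1. Serum response factor (SRF), with its actin-regulated partners, acts on cytoskeletal and immediate early genes. Type I interferon acts through a complex that contains IRF9 on antiviral effectors such as ISG15 and the IFIT genes. Granins such as CHGA are packed into the dense-core vesicles of endocrine cells and neurons. The values are per gene, so they give the abundance of transcripts and not the inclusion of exons.

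The promoters of 6 genes that stand for these programmes are shown, each as the 250 bases before the RefSeq start on GRCh38.p14, 5′ to 3′ on the strand of the gene. Those of EGR1 and IFIT1 were added after their values were seen. CCN2 (chr6:131951373-131951622, minus strand) and ANKRD1 (chr10:90921088-90921337, minus strand) have the TEAD-type motif GGAATG in capitals.
CCN2: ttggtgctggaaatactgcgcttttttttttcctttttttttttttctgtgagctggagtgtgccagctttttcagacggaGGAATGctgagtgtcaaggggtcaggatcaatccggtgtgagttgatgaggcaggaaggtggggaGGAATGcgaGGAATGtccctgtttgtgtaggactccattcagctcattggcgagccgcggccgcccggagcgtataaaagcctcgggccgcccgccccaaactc
ANKRD1: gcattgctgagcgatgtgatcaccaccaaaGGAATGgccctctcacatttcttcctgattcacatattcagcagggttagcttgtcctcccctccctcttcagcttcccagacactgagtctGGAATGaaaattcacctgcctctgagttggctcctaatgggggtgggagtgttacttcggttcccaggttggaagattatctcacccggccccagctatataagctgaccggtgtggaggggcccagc
EGR1 (chr5:138465229-138465478, plus strand), an immediate early gene, has the CArG box of SRF in capitals.
EGR1: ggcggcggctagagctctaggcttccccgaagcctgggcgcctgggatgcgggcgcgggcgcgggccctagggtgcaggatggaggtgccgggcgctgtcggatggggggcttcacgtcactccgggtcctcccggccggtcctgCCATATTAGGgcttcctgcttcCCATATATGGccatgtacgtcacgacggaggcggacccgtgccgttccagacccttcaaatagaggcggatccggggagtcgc
IFIT1 (chr10:89392373-89392622, plus strand) and ISG15 (chr1:1013247-1013496, plus strand) have the interferon-response motif in capitals, TTTC and TTTC with any 2 bases between them, which in ISG15 lies on the other strand as a pair of overlapping matches.
IFIT1: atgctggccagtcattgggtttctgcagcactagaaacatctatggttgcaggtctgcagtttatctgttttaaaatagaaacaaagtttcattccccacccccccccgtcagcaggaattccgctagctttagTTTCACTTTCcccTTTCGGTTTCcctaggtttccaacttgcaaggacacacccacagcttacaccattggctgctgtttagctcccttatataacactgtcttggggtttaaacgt
ISG15: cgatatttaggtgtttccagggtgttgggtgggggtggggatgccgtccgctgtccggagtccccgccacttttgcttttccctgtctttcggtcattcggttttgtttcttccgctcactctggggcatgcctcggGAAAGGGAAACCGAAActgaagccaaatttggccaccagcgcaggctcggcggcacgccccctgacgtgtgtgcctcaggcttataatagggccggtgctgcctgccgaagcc
CHGA (chr14:92922900-92923149, plus strand) has the cyclic AMP response element TGACGTCA in capitals.
CHGA: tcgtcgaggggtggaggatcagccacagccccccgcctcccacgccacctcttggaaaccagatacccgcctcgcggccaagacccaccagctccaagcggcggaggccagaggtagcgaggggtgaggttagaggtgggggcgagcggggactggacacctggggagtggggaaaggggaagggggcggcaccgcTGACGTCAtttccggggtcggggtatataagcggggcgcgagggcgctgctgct

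GGAATG stood 169, 104 and 95 bases before the start in CCN2 and 220 and 128 bases before it in ANKRD1. The CArG boxes of EGR1 stood at 105 and 83 bases, the interferon-type matches of IFIT1 at 116 and 103 bases, those of ISG15 at 113 and 107 bases, and the element of CHGA at 54 bases. Each motif was searched on both strands in every promoter. ISG15 also holds a CArG box at 91 bases and IFIT1 also holds GGAATG at 160 bases on the other strand, neither in capitals. In windows of this length, GGAATG occurs in 11.9% of the 27305 RefSeq promoters, the interferon-response motif in 3.07%, the CArG box in 1.14% and TGACGTCA in 1.77%. Among the 9923 promoters of genes that passed the filter, the shares are 8.97% for GGAATG, 2.16% for the interferon-response motif, 0.957% for the CArG box and 3.1% for TGACGTCA. Of the 24 interferon effectors that passed the filter and have a promoter entry, 16 held the interferon-response motif, a share of 66.7%. Of 17 such YAP-TEAD targets, 6 held GGAATG, a share of 35.3%. The CArG box was rarer in its lists. Of 38 such SRF and cytoskeletal genes 6 held it (15.8%), and of 21 immediate early genes 1 did (4.76%), which was EGR1. A match describes these letters and shows no binding.

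Each induced gene was high in its own library. SRRM4 (chr12:118981495-119163051) was at 63.8 cRPKM in SRRM4, 0.18 in SRRM3, 0.01 in MSI1 and 0.39 in the empty vector, with a ratio of 354 (290 to 438). SRRM3 (chr7:76201900-76287288) was at 1.39 cRPKM in SRRM4, 38.5 in SRRM3, 0.61 in MSI1 and 0.49 in the empty vector, with a ratio of 0.0360 (0.0320 to 0.0404). The level of SRRM3 in the SRRM4 library was 2.82 times that in the empty vector (2.25 to 3.54), whereas SRRM4 in the SRRM3 library was 0.467 times that in the empty vector (0.362 to 0.598). On the length-corrected scale the SRRM4 transcript in its own library thus stood above the SRRM3 transcript in its own library, so the induced transcripts were not at equal levels, and protein was not measured. SRRM1, which belongs to the same SR-related family of splicing coactivators, had 44.4 cRPKM in SRRM4 and 47.8 in SRRM3, with a ratio of 0.928 (0.901 to 0.955). SRRM2, a spliceosome component, had 94.6 cRPKM in SRRM4 and 92.7 in SRRM3, with a ratio of 1.02 (1.01 to 1.03). REST was at 6.5 cRPKM in SRRM4, 7.13 in SRRM3, 7.74 in MSI1 and 7.93 in the empty vector, and its ratio of SRRM4 over SRRM3 was 0.911 (0.865 to 0.958).

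Few genes differed widely between the libraries. Of 12705 genes, 39 (0.307%) were at least 2-fold higher in SRRM4 and 32 (0.252%) at least 2-fold lower. The interval also excluded 1 for 15 of the higher genes (0.118%) and 16 of the lower genes (0.126%). Among these, 10 higher genes (0.0861% of 11609) and 14 lower genes (0.121%) were protein-coding. The 24 higher genes without such an interval had a median of 4 reads summed over both libraries and the 16 lower ones a median of 6.5. With TMM-scaled CPM in place of cRPKM the counts were 12 higher and 15 lower. The share of called genes that was higher was thus 54.9% with cRPKM and 44.4% with TMM-scaled CPM. The TMM factors themselves differed little, with a log2 ratio of SRRM4 over SRRM3 of -0.016. Among protein-coding genes on the cRPKM scale the counts were also 12 higher and 15 lower, and 27 higher and 17 lower genes were of other types. The equal counts do not mean the same genes. The protein-coding gene ALG1L1P was called lower with cRPKM and had a log2 fold of -0.85 with TMM-scaled CPM. The median log2 fold over all genes was -0.01, the middle 50% of genes lay between -0.13 and 0.10, and 97.7% of genes were within 1.5-fold.

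**Figure D1:**
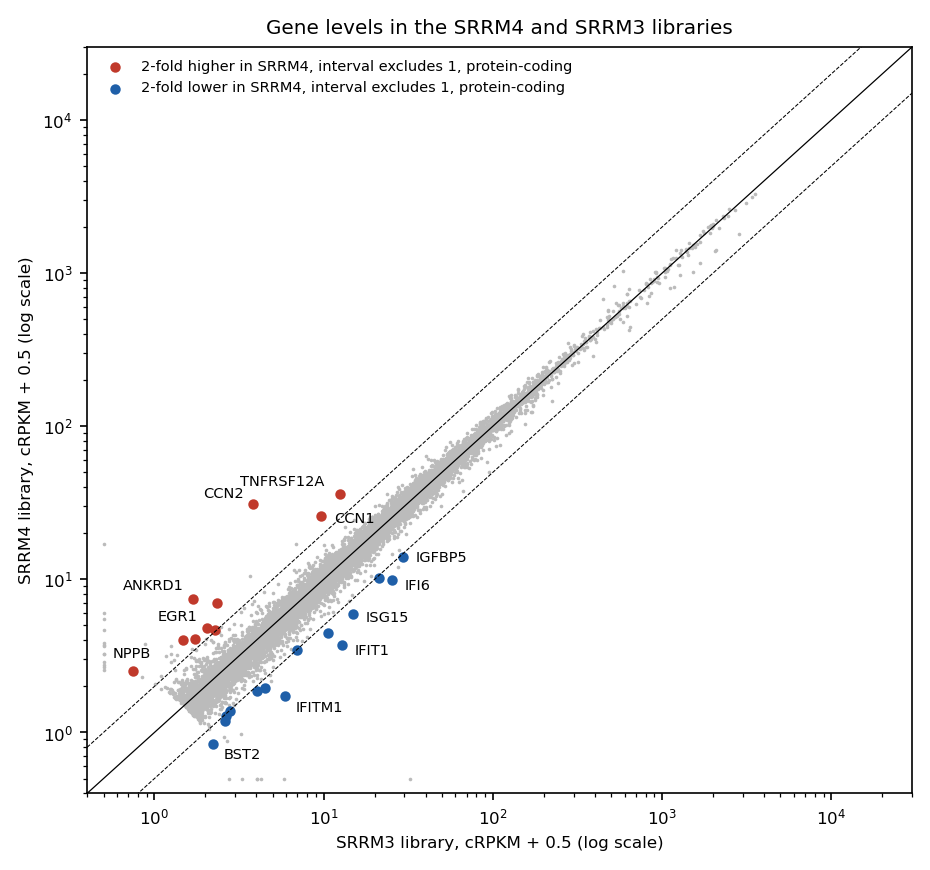
Level in the SRRM4 library (vertical axis) against the SRRM3 library (horizontal axis), as cRPKM + 0.5 on log scales, with 1 point for each of the 12705 genes. The solid line marks equal levels and the dashed lines 2-fold. The 10 red and 14 blue points are the protein-coding genes at least 2-fold higher or lower in SRRM4 with an interval excluding 1, and CCN2 lies farthest above the line among the red points.

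Smaller differences were common and exceeded counting error. The interval excluded 1 for 3438 genes higher in SRRM4 (27.1%) and 3887 genes lower (30.6%). At a mean of 1 to 2 cRPKM the median absolute log2 fold was 0.18, against 0.10 from counting error alone, and above 100 cRPKM it was 0.08 against 0.01. An interval that excludes 1 is therefore usual here at high levels, where 79.6% of genes above 100 cRPKM had one. By a 1.5-fold rule 115 genes (0.905%) were higher and 178 (1.4%) lower.

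**Figure D2:**
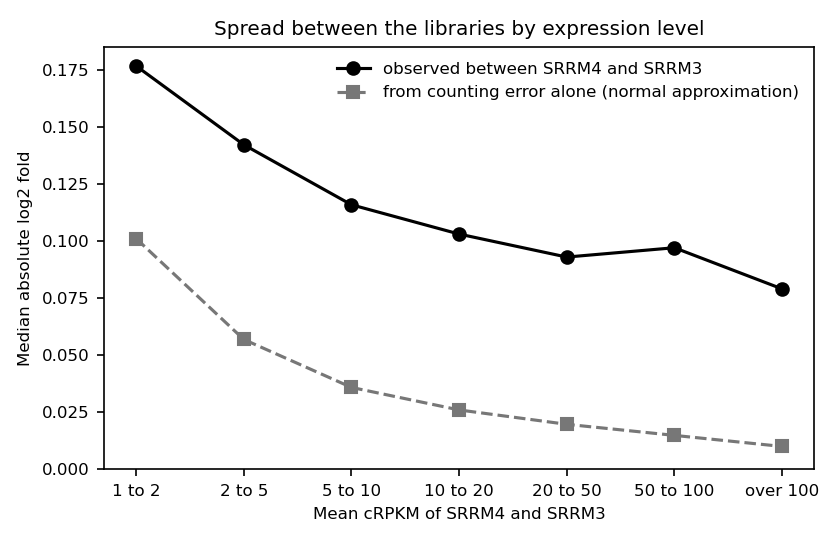
Median absolute log2 fold of SRRM4 over SRRM3 (vertical axis) in 7 classes of mean cRPKM (horizontal axis). The solid line is the observed value and the dashed line the value that counting error alone gives, which the observed line exceeds in all 7 classes.

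The share of genes at least 2-fold apart with an interval excluding 1 was 0.244% for SRRM4 over SRRM3, 0.395% for SRRM4 over the empty vector and 0.528% for SRRM3 over the empty vector, with MSI1, SRRM3 and SRRM4 left out. For MSI1 over the empty vector it was 0.379%. These comparisons share libraries, and their difference was not tested. Among well-expressed genes, those with a mean of at least 10 cRPKM, the standard deviation of the log2 fold was 0.19 for SRRM4 over SRRM3, 0.15 for SRRM4 over the empty vector and 0.18 for SRRM3 over the empty vector.

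Of the 10 protein-coding genes at least 2-fold higher, CCN2, ANKRD1 and CCN1 are on the YAP-TEAD list and TAGLN, ACTBL2 and TNFRSF12A on the SRF and cytoskeletal list. CCN2 (chr6:131948176-131951373), a secreted matricellular protein whose promoter with 3 GGAATG matches is shown above, was at 30.5 cRPKM in SRRM4, 3.31 in SRRM3, 9.27 in MSI1 and 16.9 in the empty vector. SRRM4 was the highest and SRRM3 the lowest of the 4 libraries, and the ratio was 9.22 (8.38 to 10.2). The distance was mostly on the SRRM3 side, with SRRM4 at 1.8 times (1.71 to 1.89) and SRRM3 at 0.195 times (0.177 to 0.216) the empty vector. ANKRD1 (chr10:90912096-90921276), a muscle ankyrin-repeat protein, was at 6.98 cRPKM in SRRM4, 1.2 in SRRM3, 14.4 in MSI1 and 5.48 in the empty vector. SRRM3 was again the lowest, MSI1 was the highest, and the ratio was 5.8 (4.86 to 6.97). CCN1, the close relative of CCN2, was at 25.3 cRPKM in SRRM4, 9.17 in SRRM3, 18.9 in MSI1 and 18 in the empty vector, with a ratio of 2.76 (2.59 to 2.94). In these RNA samples from whole cultures, fewer cells with a transcript and less transcript in each cell cannot be told apart.

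TAGLN, the actin-binding protein transgelin, was at 6.49 cRPKM in SRRM4, 1.85 in SRRM3, 3.65 in MSI1 and 4.75 in the empty vector, with a ratio of 3.52 (2.81 to 4.43). It overlaps PCSK7 on the opposite strand, and the sources used here do not give whether the counting used strand. ACTBL2, an actin-like protein, was at 3.53 cRPKM in SRRM4, 0.98 in SRRM3, 5.72 in MSI1 and 3.62 in the empty vector, so SRRM3 alone stood low, and the ratio was 3.59 (3.02 to 4.28). TNFRSF12A, the receptor of the cytokine TWEAK, was at 35.7 cRPKM in SRRM4, 12 in SRRM3, 58.9 in MSI1 and 25.3 in the empty vector, with a ratio of 2.97 (2.73 to 3.23). SRRM3 was the lowest library for all of these genes. EGR1, the zinc-finger factor with the CArG boxes shown above, was at 4.34 cRPKM in SRRM4, 1.55 in SRRM3, 2.88 in MSI1 and 2.42 in the empty vector, with a ratio of 2.81 (2.45 to 3.21).

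The remaining 3 protein-coding genes at least 2-fold higher were NPPB, IL32 and PKP3. NPPB, the precursor of B-type natriuretic peptide, was counted 79 times in SRRM4, 10 times in SRRM3, 33 times in MSI1 and 31 times in the empty vector, with a ratio of 8.24 with a wide interval (4.25 to 17.9). IL32, a cytokine, was at 3.55 cRPKM in SRRM4, 1.24 in SRRM3, 1.81 in MSI1 and 3.7 in the empty vector, with a ratio of 2.87 (2.20 to 3.78). PKP3, a desmosomal plakophilin, was at 4.19 cRPKM in SRRM4, 1.77 in SRRM3, 2.65 in MSI1 and 3.84 in the empty vector, with a ratio of 2.36 (2.06 to 2.71). In all 3 genes SRRM3 had the lowest level. For the 10 protein-coding higher genes together, the empty vector lay between SRRM4 and SRRM3 in 8 and above both in 2. Against the empty vector, 7 of the 10 lay on opposite sides in SRRM4 and SRRM3 with both intervals excluding 1, and for the other 3 only the SRRM3 interval excluded 1.

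**Figure D3:**
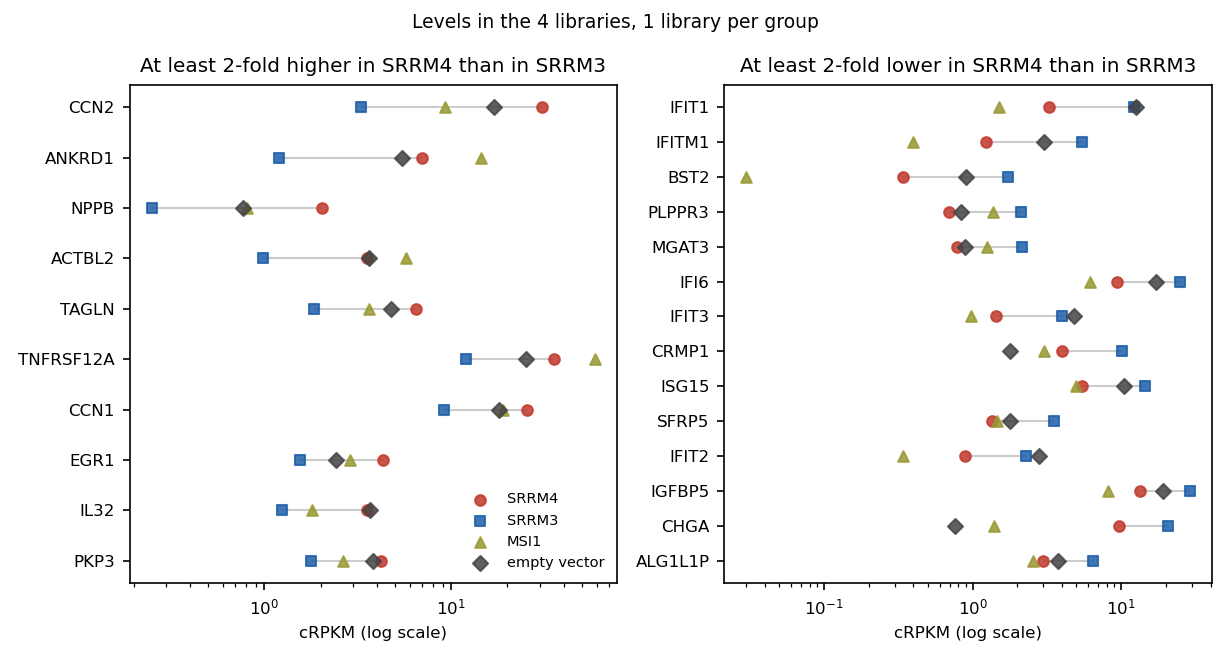
cRPKM on a log scale (horizontal axis) in the SRRM4 (circles), SRRM3 (squares), MSI1 (triangles) and empty vector (diamonds) libraries, 1 library for each group, with a line joining SRRM4 and SRRM3. The left panel holds the 10 protein-coding genes at least 2-fold higher in SRRM4, in which SRRM3 is the lowest library. The right panel holds the 14 at least 2-fold lower genes, in which the empty vector is below both for CHGA and CRMP1.

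Most members of these lists differed by less than 2-fold. Of 24 YAP-TEAD targets that passed the filter, of 30 listed, 19 were higher and 5 lower in SRRM4, with a median log2 fold of 0.11, and CCN2, ANKRD1 and CCN1 were the members at least 2-fold higher. Over all genes 48% were higher. Of 42 SRF and cytoskeletal genes, of 45 listed, 32 were higher and 10 lower, with a median of 0.15 and 3 members at least 2-fold higher, which were TAGLN, TNFRSF12A and ACTBL2. ACTA2, smooth muscle actin, stood on the other side at 28.1 cRPKM in SRRM4 and 39.8 in SRRM3, with a ratio of 0.706 (0.668 to 0.746). Of 29 immediate early genes, 17 were higher and 12 lower, with a median of 0.22. FOSL1, an AP-1 subunit, was at 6.03 cRPKM in SRRM4, 2.9 in SRRM3, 7.02 in MSI1 and 5.42 in the empty vector, and its ratio of 2.08 (1.81 to 2.4) gave a log2 fold of 0.94, below the 2-fold rule. IER3 and MYC, further early response genes, both had a ratio of 1.54. The matrix and TGF-beta list did not share this direction, with 12 of 36 members higher, 24 lower and a median of -0.06.

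Within the Hippo pathway itself, 15 members were higher and 14 lower of 29, with a median of 0.01. AMOT, an angiomotin that binds YAP, was at 49.5 cRPKM in SRRM4, 94.7 in SRRM3, 41.7 in MSI1 and 64.7 in the empty vector. It was the highest in SRRM3, and its ratio was 0.523 (0.514 to 0.532), a log2 fold of -0.93. AMOTL2, a related angiomotin that is also a target of YAP, was at 6.77 cRPKM in SRRM4, 3.39 in SRRM3, 4.76 in MSI1 and 4.99 in the empty vector, with a ratio of 2.0 (1.85 to 2.16) and a log2 fold of 0.90. AJUBA and WWC1, scaffold proteins of the pathway, had ratios of 1.44 and 1.30. In the order of the levels the empty vector lay between SRRM4 and SRRM3 for both angiomotins.

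Of the 14 protein-coding genes at least 2-fold lower, 7 belonged to the interferon response. ISG15 (chr1:1001138-1014540), a ubiquitin-like modifier, was at 5.44 cRPKM in SRRM4, 14.4 in SRRM3, 5.01 in MSI1 and 10.5 in the empty vector. SRRM4 and MSI1 were low and SRRM3 and the empty vector high, and the ratio was 0.377 (0.321 to 0.441). IFIT1 (chr10:89392546-89406486), which binds viral RNA, was at 3.25 cRPKM in SRRM4, 12.3 in SRRM3, 1.51 in MSI1 and 12.5 in the empty vector, with a ratio of 0.264 (0.233 to 0.298). SRRM3 was at 0.981 times the empty vector for IFIT1, so the difference lay on the SRRM4 side. IFI6, an antiviral mitochondrial and endoplasmic reticulum protein, was at 9.4 cRPKM in SRRM4, 24.8 in SRRM3, 6.15 in MSI1 and 17.2 in the empty vector, with a ratio of 0.379 (0.339 to 0.422).

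The same order, with MSI1 lowest and SRRM4 next, held for the other interferon genes in the set. IFITM1, which restricts virus entry, was at 1.24 cRPKM in SRRM4, 5.45 in SRRM3, 0.4 in MSI1 and 3.02 in the empty vector, with a ratio of 0.227 (0.164 to 0.309). BST2, which tethers budding virus, was counted 20 times in SRRM4, 105 times in SRRM3, 2 times in MSI1 and 55 times in the empty vector, with a ratio of 0.199 (0.117 to 0.323). IFIT3 was at 1.44 cRPKM in SRRM4, 3.99 in SRRM3, 0.97 in MSI1 and 4.8 in the empty vector, with a ratio of 0.360 (0.304 to 0.424). These are low levels in a line without added interferon. IFIT2 was at 0.89 cRPKM in SRRM4, 2.28 in SRRM3, 0.34 in MSI1 and 2.79 in the empty vector, with a ratio of 0.391 (0.328 to 0.464), and its log2 fold was exactly -1, or -0.99 with median centring. The IFIT genes resemble each other in sequence, IFIT1, IFIT2 and IFIT3 overlap LIPA on the opposite strand, and IFITM1 overlaps IFITM2, so the assignment of their reads is uncertain.

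Of 27 interferon effectors that passed the filter, of 42 listed, 24 were lower in SRRM4 and 3 higher, with a median log2 fold of -0.27. Intervals excluded 1 for 23 of the lower members, and 7 were at least 2-fold lower. Over all genes 51.5% were lower, 30.6% were lower with an interval excluding 1, and 0.126% were at least 2-fold lower with one. The filter did not use the empty vector. Relative to the empty vector the median of these 27 members was -0.24 for SRRM4 and 0.02 for SRRM3. The sensors and signalling proteins differed less, with 23 of 31 lower, 8 higher, a median of -0.10 and no member at least 2-fold apart. IRF9, the DNA-binding subunit of the interferon-activated complex, was at 3.32 cRPKM in SRRM4, 5.14 in SRRM3, 2.64 in MSI1 and 4.26 in the empty vector, with a ratio of 0.646 (0.565 to 0.738). The RNA sensor RIGI had a ratio of 0.668 and the transcription factor STAT2 a ratio of 0.802.

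Several genes of neuroendocrine secretion were lower in SRRM4 than in SRRM3, and the 4 with the widest folds stood above the empty vector in both libraries. CHGA (chr14:92923080-92935293), the granin chromogranin A, was at 9.7 cRPKM in SRRM4, 20.8 in SRRM3, 1.39 in MSI1 and 0.76 in the empty vector. Its ratio of SRRM4 over SRRM3 was 0.466 (0.435 to 0.50), with SRRM4 at 12.8 times and SRRM3 at 27.4 times the empty vector. CHGA lies on chromosome 14, whose genes were lower in SRRM4 as a whole, and with each chromosome centred on its median its log2 fold was -0.91 in place of -1.06, below the 2-fold rule. PTPRN, a dense-core vesicle membrane protein, was at 1.05 cRPKM in SRRM4, 2.41 in SRRM3, 1.29 in MSI1 and 0.14 in the empty vector, with a ratio of 0.438 (0.374 to 0.510) and a log2 fold of -0.91. PCSK1, a convertase that cleaves prohormones, was at 5.56 cRPKM in SRRM4, 10.1 in SRRM3, 1.27 in MSI1 and 0.72 in the empty vector, with a ratio of 0.552 (0.520 to 0.586). SYT4, a synaptotagmin, was at 1.68 cRPKM in SRRM4, 3.31 in SRRM3, 0.03 in MSI1 and 0.06 in the empty vector, with a ratio of 0.507 (0.450 to 0.572). Of 21 granin and dense-core vesicle genes, 18 were lower and 3 higher, with a median of -0.30, and CHGA was the member at least 2-fold apart. That median was -0.18 with no filter and also with a mean of at least 5 cRPKM. Some of the 21 genes, such as SYT4, passed the filter only through the SRRM4 and SRRM3 libraries. Their median against the empty vector is therefore not given.

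The wider set of genes that REST represses in other tissues leaned the same way, with 23 of 34 lower in SRRM4, 11 higher and a median of -0.12. This set shares members with the granin list, among them CHGA, PCSK1 and SYT4, so the counts of these lists are not separate. A further 17 listed genes were below the filter or left out as SRRM3 and SRRM4. Genes silent in the empty vector enter only through these libraries, so no median against the empty vector is given. That of SRRM4 over SRRM3 was -0.05 with no filter and -0.30 with a mean of at least 5 cRPKM. ACTL6B, a subunit of the neuronal BAF chromatin complex, was at 2.47 cRPKM in SRRM4, 4.52 in SRRM3, 0.14 in MSI1 and 0.14 in the empty vector, with a ratio of 0.547 (0.463 to 0.646). CPLX2, a complexin of synaptic vesicle fusion, was at 5.48 cRPKM in SRRM4, 9.54 in SRRM3, 0.11 in MSI1 and 0.11 in the empty vector, with a ratio of 0.574 (0.540 to 0.610). CHRNB2, a nicotinic receptor subunit, was at 2.17 cRPKM in SRRM4, 3.4 in SRRM3, 0.1 in MSI1 and 0.11 in the empty vector, with a ratio of 0.639 (0.583 to 0.700). In all 3, SRRM3 was the highest library, SRRM4 came next, and MSI1 and the empty vector were at 0.14 cRPKM or less.

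The order was not shared by every synaptic gene. SNAP25, a membrane-fusion protein, was at 1.35 cRPKM in SRRM4, 0.96 in SRRM3, 0.04 in MSI1 and 0.08 in the empty vector, with a ratio of 1.41 whose interval (0.794 to 2.53) included 1. Of 26 synaptic vesicle genes, 11 were higher and 14 lower in SRRM4, with a median of -0.06, and of 24 ion channels and receptors 8 were higher and 16 lower, with a median of -0.06. The REST complex itself had 9 of 24 members higher, 15 lower and a median of -0.04, with RCOR2, a corepressor, at a ratio of 0.704. The BAF list had 11 members on each side and a median of 0.002.

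Among genes of the neuronal cytoskeleton and axon guidance, 31 of 40 were lower in SRRM4 and 9 higher, with a median of -0.19. CRMP1, a mediator of semaphorin signalling, was at 3.99 cRPKM in SRRM4, 10.2 in SRRM3, 3.03 in MSI1 and 1.79 in the empty vector, with a ratio of 0.393 (0.361 to 0.428). The empty vector lay below both libraries, as for CHGA. CRMP1 overlaps EVC on the opposite strand, which had 3.69 cRPKM in SRRM4 and 4.57 in SRRM3, so the limit on strand given for TAGLN holds here too. PLPPR3, a membrane protein of growing axons, was at 0.69 cRPKM in SRRM4, 2.11 in SRRM3, 1.37 in MSI1 and 0.83 in the empty vector, with a ratio of 0.328 (0.258 to 0.415). NEFM, the medium neurofilament subunit, was at 11.8 cRPKM in SRRM4, 19.4 in SRRM3, 15.7 in MSI1 and 11.3 in the empty vector, with a ratio of 0.609 (0.581 to 0.639). For PLPPR3 and NEFM the SRRM4 library was close to the empty vector and SRRM3 was the highest. MSI1 lay between the empty vector and SRRM3 for both, and for PLPPR3 it was at 1.64 times the empty vector (1.30 to 2.07).

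Of the other protein-coding genes at least 2-fold lower, IGFBP5 had the most reads. IGFBP5, a binding protein of insulin-like growth factors, was at 13.4 cRPKM in SRRM4, 29 in SRRM3, 8.16 in MSI1 and 19.1 in the empty vector, with a ratio of 0.462 (0.447 to 0.478). SFRP5, a secreted Wnt antagonist, was at 1.36 cRPKM in SRRM4, 3.56 in SRRM3, 1.45 in MSI1 and 1.79 in the empty vector, with a ratio of 0.381 (0.313 to 0.461). MGAT3, which adds the bisecting sugar to N-glycans, was at 0.78 cRPKM in SRRM4, 2.16 in SRRM3, 1.25 in MSI1 and 0.89 in the empty vector, with a ratio of 0.362 (0.310 to 0.420). SRRM3 was the highest library for all of these genes. ALG1L1P, a pseudogene by its symbol that the annotation types as protein-coding, was at 2.97 cRPKM in SRRM4, 6.44 in SRRM3, 2.56 in MSI1 and 3.77 in the empty vector, with a ratio of 0.461 (0.342 to 0.616). Its log2 fold was exactly -1, and it was below the 2-fold rule with a pseudocount of 2 (-0.76), median centring (-0.99) and TMM-scaled CPM (-0.85). Of the 14 lower protein-coding genes, the empty vector lay between SRRM4 and SRRM3 in 9, above both in 3 and below both in 2. Against the empty vector, 6 lay on opposite sides in SRRM4 and SRRM3 with both intervals excluding 1, and 4 on the same side. For 3 only the SRRM3 interval excluded 1, and for 1 only the SRRM4 interval did.

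Signalling lists beside these genes leaned lower in SRRM4 with small medians. The IGF axis had 13 of 17 members lower, 4 higher and a median of -0.12, with HTRA1, a secreted protease, at a ratio of 0.661. The Wnt list had 24 of 29 lower, 5 higher and a median of -0.11, with DKK3 at 0.560 and the receptor FZD2 at 0.704. The Notch list had 20 of 26 lower, 6 higher and a median of -0.15. NOTCH3, a Notch receptor, was at 3.54 cRPKM in SRRM4, 6.07 in SRRM3, 5.61 in MSI1 and 3.81 in the empty vector, with a ratio of 0.583 (0.550 to 0.617). By comparison, 51.5% of all genes were lower.

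The splicing machinery itself was close between the libraries. Of 46 SR proteins and related cofactors, 29 were higher in SRRM4 and 17 lower, with a median of 0.04 and no member at least 2-fold apart. RBM39, an SR-like splicing factor, was at 108 cRPKM in SRRM4, 87 in SRRM3, 77.9 in MSI1 and 81.8 in the empty vector, with a ratio of 1.25 (1.22 to 1.27). LUC7L3 and LUC7L, cofactors of the U1 particle, had ratios of 1.22 and 1.18. The hnRNP list had 19 of 29 higher, 10 lower and a median of 0.03. Among 24 neural splicing regulators 10 were higher and 14 lower, with a median of -0.04. MBNL3, a muscleblind protein, was at 2.07 cRPKM in SRRM4, 3.63 in SRRM3, 2.64 in MSI1 and 2.73 in the empty vector, with a ratio of 0.570 (0.475 to 0.682).

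Genes that host neural microexons showed no common direction in abundance. Of 77 that passed the filter, 34 were higher in SRRM4 and 42 lower, with a median of -0.02 and a range of -0.63 to 0.33. RIMS2, an active-zone scaffold, had 0.7 cRPKM in SRRM4 and 1.36 in SRRM3, with a ratio of 0.513 (0.426 to 0.616). L1CAM, an axonal adhesion molecule, had a ratio of 0.680 and SNAP91, a clathrin adaptor of synapses, 0.697. PICALM, the broadly expressed relative of SNAP91, had 42 cRPKM in SRRM4 and 33.3 in SRRM3, with a ratio of 1.26 (1.22 to 1.30). Inclusion of their microexons was not measured in these gene-level values.

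Stress and metabolic programmes differed by less than 2-fold. Heat shock genes were higher in SRRM4 in 19 of 21 cases, with 2 lower and a median of 0.22. HSPA1A, an inducible HSP70 chaperone, was at 1037 cRPKM in SRRM4, 591 in SRRM3, 1001 in MSI1 and 858 in the empty vector, with a ratio of 1.76 (1.72 to 1.79). SRRM3 was the lowest library, and HSPA1B had a ratio of 1.59. These genes are near-identical copies, so their separate values are uncertain. HSPB1, a small heat shock protein, stood on the other side at 61.4 cRPKM in SRRM4 and 85.1 in SRRM3, with a ratio of 0.721 (0.689 to 0.755). The ATF4 response (18 of 30 higher, median 0.02) and the unfolded protein response (14 of 23 higher, median 0.05) had medians nearer to that of all genes.

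Cholesterol synthesis and p53 target lists leaned the other way. Of 34 cholesterol genes, 29 were lower in SRRM4 and 5 higher, with a median of -0.21. INSIG1, which retains the SREBP regulators in the endoplasmic reticulum, was at 29.6 cRPKM in SRRM4, 48.8 in SRRM3, 40.4 in MSI1 and 39.6 in the empty vector, with a ratio of 0.606 (0.586 to 0.627). SREBF1, which encodes such a regulator, had a ratio of 0.603. SRRM4 was the lowest and SRRM3 the highest of the 4 libraries for INSIG1. Of 30 p53 targets, 27 were lower and 3 higher, with a median of -0.17. PMAIP1, the apoptosis regulator NOXA, was at 134 cRPKM in SRRM4, 173 in SRRM3, 151 in MSI1 and 159.6 in the empty vector, with a ratio of 0.776 (0.760 to 0.793).

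Mitochondrially encoded mRNAs were the list with the lowest median, -0.53, with 12 of 13 lower in SRRM4. MT-CO2, a subunit of cytochrome oxidase, was at 1809.9 cRPKM in SRRM4, 2860.1 in SRRM3, 2174 in MSI1 and 1700.1 in the empty vector, with a ratio of 0.633 (0.627 to 0.639). The mitochondrial genome took 0.936% of reads in SRRM4, 1.33% in SRRM3, 1.07% in MSI1 and 0.881% in the empty vector, and its part in the other differences was not tested. Nuclear genes of the respiratory chain did not share the shift, with 22 of 36 higher, 14 lower and a median of 0.03. Ribosomal protein genes had 46 of 75 higher and a median of 0.03. The G1/S and G2/M lists had medians of 0.004 and 0.03, and the hypoxia and glycolysis list 0.07. Of 34 lists with at least 5 members past the filter, 15 had a median above 0 and 19 below.

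**Figure D4:**
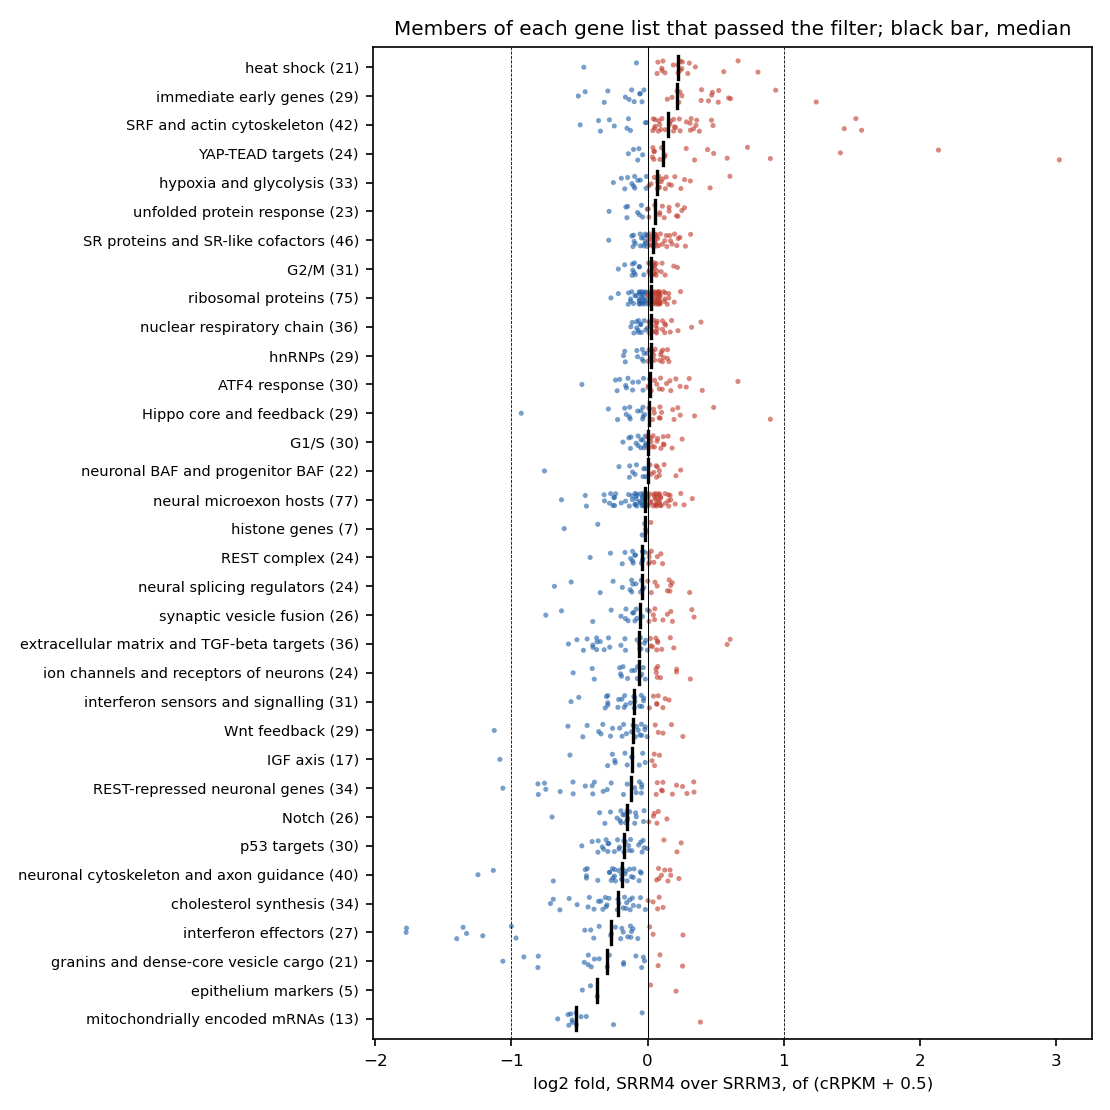
log2 fold of SRRM4 over SRRM3 on the cRPKM + 0.5 scale (horizontal axis) for each member that passed the filter, by gene list with the number of such members in brackets. Red points are above 0, blue points below, black bars are list medians and dashed lines mark 2-fold. Medians run from 0.22 for heat shock genes to -0.53 for mitochondrially encoded mRNAs, and the points past 2-fold come from a minority of the lists.

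Differences also followed the chromosomes. The median log2 fold was 0.14 over 686 genes of chromosome 11, 0.16 over 332 genes of chromosome 20 and -0.15 over 423 genes of chromosome 14. The share of genes higher in SRRM4 was 78.6% on chromosome 11, 81.0% on chromosome 20 and 19.9% on chromosome 14. Medians of the remaining autosomes and the X ran from -0.07 on chromosome 2 to 0.06 on chromosome 9. Relative to the empty vector, SRRM4 had medians of -0.02 on chromosome 11, 0.02 on chromosome 20 and -0.02 on chromosome 14. SRRM3 had -0.16 on chromosome 11, -0.13 on chromosome 20 and 0.13 on chromosome 14, so the distance lay on the SRRM3 side. MSI1 had -0.08, -0.10 and 0.03 in the same order of chromosomes. Copy number of the lines was not measured here, and its part was not tested.

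In windows of 50 neighbouring measured genes, 12 of 13 windows on chromosome 11 and 6 of 6 on chromosome 20 had a median of at least 0.1, and 5 of 8 on chromosome 14 had one of -0.1 or less. The 5 windows on chromosome 14 were neighbours, from 36298558 to 94116698, and the 3 others there had medians between -0.06 and -0.03. On the other chromosomes 3 of 217 windows reached 0.1 and 6 reached -0.1. The highest window, chr11:65570430-67312607, had a median of 0.30. It holds FOSL1, and also BRMS1, a subunit of a histone deacetylase complex, at 52.2 cRPKM in SRRM4, 33.3 in SRRM3, 43.1 in MSI1 and 46.7 in the empty vector, with a ratio of 1.57 (1.49 to 1.64). CFL1, the actin-severing protein cofilin in the same window, had 351 cRPKM in SRRM4 and 278 in SRRM3, with a ratio of 1.26 (1.25 to 1.28). CFL1 was chosen after its values were seen.

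**Figure D5:**
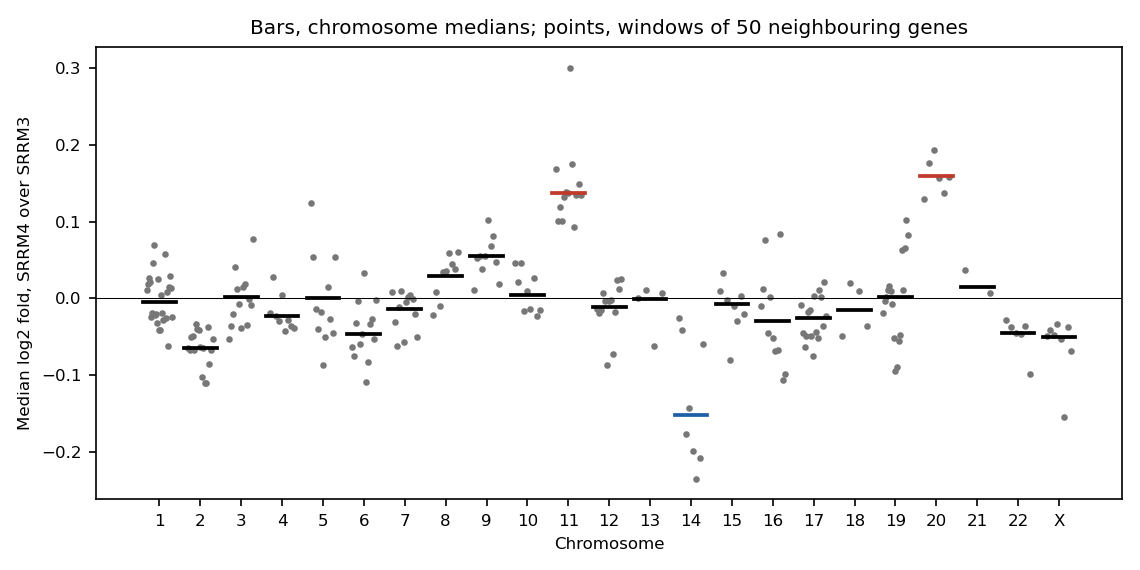
Median log2 fold of SRRM4 over SRRM3 (vertical axis) by chromosome (horizontal axis), with bars for the chromosome and grey points for windows of 50 neighbouring genes. The bars of chromosomes 11 and 20 stand at 0.14 and 0.16, that of chromosome 14 at -0.15, and the others between -0.07 and 0.06.

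Some list members with the widest folds lie on these chromosomes. In the ribosomal protein, nuclear respiratory chain, G1/S and G2/M lists, 9 of the 16 members named by size lay on chromosome 11, 14 or 20, and all 9 differed in the direction of their chromosome. Over all lists, 31 of 136 such members (22.8%) lay there, 26 of them in the direction of their chromosome. Of all 1441 compared genes on these chromosomes, 1147 differed in that direction. These chromosomes hold 11.3% of the genes compared. The respiratory genes NDUFV1, NDUFS3 and SDHD on chromosome 11 had ratios of 1.32, 1.25 and 1.17. RPS21 on chromosome 20 had a ratio of 1.18 and RPS29 on chromosome 14 a ratio of 0.862. The cell cycle genes E2F1, AURKA and TPX2 on chromosome 20 had ratios of 1.20, 1.17 and 1.14. This count was made after the values were seen. Of the 24 protein-coding genes at least 2-fold apart, 4 lie on the 3 chromosomes. TAGLN and PKP3 on chromosome 11 were higher and CHGA on chromosome 14 was lower, in the direction of their chromosome, and IFITM1 on chromosome 11 was lower, against it. With each chromosome centred on its own median, PKP3 had a log2 fold of 0.91 in place of 1.05, below the 2-fold rule.

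Of 1096 genes not typed as protein-coding that passed the filter, 5 (0.456%) were called higher and 2 (0.182%) lower with an interval excluding 1. Among the 11609 protein-coding genes these shares were smaller, 0.0861% higher and 0.121% lower. ENSG00000269968, antisense to GAPDH, was counted 74 times in SRRM4, 9 times in SRRM3, 34 times in MSI1 and 20 times in the empty vector, with a ratio of 8.58 (4.28 to 19.5). ENSG00000265401, antisense to UBB, was counted 38 times in SRRM4, 10 times in SRRM3, 13 times in MSI1 and 12 times in the empty vector, with a ratio of 3.96 (1.94 to 8.92). GAPDH had 1827 cRPKM in SRRM4 and 1919.8 in SRRM3 and UBB at 699 in SRRM4 and 739 in SRRM3, and without a stated use of strand in the counting their reads and those of the antisense genes cannot be told apart. RNVU1-30, a variant U1 snRNA, was counted 8 times in SRRM4, 0 times in SRRM3, 3 times in MSI1 and 3 times in the empty vector. Its ratio was 2.78 against a floor of 3 counts in the SRRM3 library, and the lower bound of its counting interval was 1.78. With TMM-scaled CPM its log2 fold was 0.34, below the 2-fold rule. It overlaps LINC00869 on the same strand. On the lower side, ENSG00000249602 had a ratio of 0.370 and RN7SL454P 0.435, with at most 36 reads in any library.

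Marker genes were checked against the label HEK293. Of 5 genes listed for this line 4 passed the filter, 1 higher in SRRM4 and 3 lower, all with intervals excluding 1. PAX2 was below the filter, at no more than 1.25 cRPKM in SRRM4 or SRRM3. NEFM, given above, had a ratio of 0.609. NEFL, a neurofilament gene that this line is known to express, was at 39 cRPKM in SRRM4, 40.5 in SRRM3, 49.2 in MSI1 and 45.9 in the empty vector, and GATA3 was at 9.67 in SRRM4, 11.1 in SRRM3, 9.68 in MSI1 and 9.57 in the empty vector. No member of the endothelial and blood lists passed the filter, and the blood list summed to 0.21 cRPKM in SRRM4, 0 in SRRM3, 0.39 in MSI1 and 0.19 in the empty vector. Of 6 fibroblast markers 1 passed, COL1A1 at 3.39 cRPKM in SRRM4 and 3.23 in SRRM3, while DCN and COL1A2 were listed at 0. Of 7 neuronal markers 4 passed, and the list summed to 20.04 cRPKM in SRRM4, 22.8 in SRRM3, 23.9 in MSI1 and 14.4 in the empty vector, most of it TUBB3. RBFOX3 and ELAVL4 were at 0.13 cRPKM or less in all 4. SYN1 was at 1.81 cRPKM in SRRM4, 2.28 in SRRM3, 0.36 in MSI1 and 0.21 in the empty vector. SNAP25, given above, was likewise higher in SRRM4 and SRRM3 than in the others. MAP2 was at 1.59 cRPKM in SRRM4, 2.34 in SRRM3, 2.12 in MSI1 and 1.93 in the empty vector. The epithelial list had a median log2 fold of -0.37 over 5 members, with KRT19 at 89.4 cRPKM in SRRM4 and 125 in SRRM3 and KRT18 at 147 in SRRM4 and 127 in SRRM3. The part of cell identity in the differences above was not tested.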

How the data were processed

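PolyA-selected, stranded RNA-seq libraries of 4 induced HEK293 lines were analysed, with groups taken from the labels. The authors deposited 1 file for each library, without a header, holding for each Ensembl gene an RPKM value with 2 decimals (cRPKM) and a whole-number read count. Per the submitters' processing notes the genome build was hg38 (GRCh38). The sources used here do not give the aligner, the counting program or its use of strand. Over 6261 genes with many reads, the ratio of count to RPKM between the deposited SRRM4 and SRRM3 values equalled the ratio of library totals (0.95859 and 0.958589), so the values are scaled by the total. Of 41614 genes, 1426 had no value in any library, and 39941 of the remaining 40188 were named. Coordinates and gene types are those of GENCODE 29.

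Total counts were 60288244 to 63003121, and a floor of 3 counts is about 0.05 CPM. Folds, intervals (95%, Clopper-Pearson, conditional on the summed count) and the filter are as given in the results, and the calculation was tested on simulated data. The genes, lists and comparisons were chosen with earlier results of these data known. Genes were named by rule: SRRM1, SRRM2, CCN2, ANKRD1, ISG15 and CHGA, up to 15 protein-coding and 3 other genes in each direction at least 2-fold apart with an interval excluding 1 by the bound nearest to 1, and up to 4 members of each list with the largest absolute fold. Proteins of SRRM3 and SRRM4 are not shown. Promoters were found for 16 of the 24 protein-coding genes at least 2-fold apart, the others being NPPB, TAGLN, TNFRSF12A, CCN1, PKP3, MGAT3, IFIT2 and ALG1L1P.

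Alternatives were pseudocounts of 0.1 and 2, no filter, a mean of at least 5 cRPKM, centring on the median, CPM with TMM factors from edgeR, protein-coding genes only, a 1.5-fold rule, the 2-fold rule with the interval and list means. Centring on chromosome medians and all alternatives for chromosome medians were chosen after seeing the data. TMM factors came from edgeR 4.0.16 in R 4.3.3. The rest was computed in Python 3.11.15 with scipy 1.17.1, pandas 2.3.3 and numpy 2.4.6 and drawn with matplotlib 3.10.9. Some list members are not reported here.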

Additional observations from a re-analysis of the deposited data

Results flagged for a closer look

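In 13 of the 24 protein-coding genes at least 2-fold apart, SRRM4 and SRRM3 lay on opposite sides of the empty vector. Both counting intervals against the empty vector excluded 1 in these genes. Choosing genes by a wide distance between SRRM4 and SRRM3 favours this pattern, and genes below the 2-fold rule were not counted. Over all genes compared, the interval against the empty vector excluded 1 for 48.4% in SRRM4 and 57.7% in SRRM3. With 1 library in each group the difference was not tested, and both ratios share the empty vector library. For 7 genes SRRM4 stood above and SRRM3 below the empty vector. Their log2 folds of SRRM4 over SRRM3 were 3.025 for CCN2, 2.138 for ANKRD1, 1.754 for NPPB, 1.573 for TAGLN, 1.531 for TNFRSF12A, 1.417 for CCN1 and 1.239 for EGR1. For 6 genes SRRM4 stood below and SRRM3 above it. Their log2 folds were -1.774 for IFITM1, -1.402 for BST2, -1.355 for IFI6, -1.33 for ISG15, -1.126 for SFRP5 and -1.085 for IGFBP5. Further interferon genes, IFIT1, IFIT2 and IFIT3, did not follow this pattern, since the empty vector was above both libraries.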

How the results depend on the processing

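Counts of genes at least 2-fold apart depended on the treatment of low values. Higher and lower genes numbered 39 and 32 as reported, 21 and 14 with a pseudocount of 2, 112 and 104 of 24292 genes with no filter, 6 and 8 of 9014 genes with a mean of at least 5 cRPKM, 12 and 15 with TMM-scaled CPM, 12 and 15 among protein-coding genes, 115 and 178 with a 1.5-fold rule, and 15 and 16 with an interval excluding 1. They were within 1.5 times the reported counts with a pseudocount of 0.1 and with either centring. Of the 29 genes called and named, 16 were below 2-fold with a pseudocount of 2, 5 with TMM-scaled CPM, 3 with chromosome centring and 2 with median centring, and 0 changed direction. Lists with a median above 0 numbered 13 to 15 over the alternatives, and 4 lists with medians near 0 changed sign under some alternative: Hippo, BAF, histone and G1/S genes. List medians of at least 0.1 in size moved by over 1.5 times for granins and REST-repressed genes with either other filter, as given above, for the IGF axis with no filter (-0.06), for epithelial markers with a pseudocount of 2 (-0.23), and with chromosome centring for Notch (-0.08) and mitochondrially encoded genes (-0.26); mitochondrial genes are then set against their own chromosome. Chromosomes 11, 14 and 20 had medians of at least 0.1 in size under all alternatives run except the absence of a filter, where 1 did, chromosome 14 at -0.10, while chromosomes 11 and 20 had 0.07 and 0.08. The cause was not tested.

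No paired analysis was possible because each group has 1 library and the labels carry no replicate numbers. For the same reason no library could be left out. Depth limits the genes counted a few times: of the 39 higher and 32 lower genes, 24 and 16 had an interval that included 1.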

Other observations

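Below the filter, 11587 genes had at least 1 read in SRRM4 or SRRM3. Of these, 8 had at least 20 reads in either library and at most 3 in the other. Antiviral genes stood among the 6 with more reads in SRRM3. OAS2, which makes the activator of RNase L, was counted 2 times in SRRM4, 75 times in SRRM3, 0 times in MSI1 and 51 times in the empty vector. IFI44 was counted 2 times in SRRM4, 50 times in SRRM3, 0 times in MSI1 and 40 times in the empty vector, and MX2, an antiviral GTPase, 2 times in SRRM4, 37 times in SRRM3, 0 times in MSI1 and 18 times in the empty vector. The ratio of SRRM4 over SRRM3 was 0.0278 (0.00331 to 0.104) for OAS2. SLC18A3, the vesicular acetylcholine transporter, was counted 2 times in SRRM4, 21 times in SRRM3, 1 time in MSI1 and 0 times in the empty vector, and CNGA3, a cyclic nucleotide-gated channel of cone photoreceptors, 3 times in SRRM4, 20 times in SRRM3, 0 times in MSI1 and 1 time in the empty vector. ASCL5 was counted 3 times in SRRM4 and 20 times in SRRM3. The 2 genes with more reads in SRRM4 were PRR9, counted 23 times in SRRM4 and 2 times in SRRM3, and ENSG00000276850, counted 20 times in SRRM4 and 3 times in SRRM3. These genes were chosen after their values were seen.

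The median differed little by gene length and was lowest for the longest genes. Genes with few reads were left out, and length was derived from the ratio of count to cRPKM. In 5 equal classes of genes by length, the median log2 fold of SRRM4 over SRRM3 was 0.006, 0.005, 0.009, -0.02 and -0.04 from the shortest to the longest.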
